A study of Mus musculus with 10 samples.

Results

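Keratin genes were followed across mouse ureteric bud (UB) organoids, organoids of the collecting duct (CD) and CD cells sorted from adult mice (adult mCD). Members were the genes listed under the symbol Krt and a number alone, which gave 44 of the 39273 genes in the deposited table. The 5 classes kept apart were 5 simple epithelial keratins, 14 keratins of stratified epithelia, 12 keratins of the hair shaft, 7 of the inner root sheath and companion layer of the hair, and 6 other epithelial keratins. Of the 44 genes, 20 had at least 10 counts over all libraries and were tested, 18 had some counts but fewer than that, and 6 had no count in any library.

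The 5 groups of 2 RNA-seq libraries were compared. UB organoids grew from buds dissected at E11.5 and were sampled after 5, 10 and 20 days in mouse UB culture medium. CD organoids were made from UB organoids of day 10 by further culture in CD differentiation medium, whose agents include FGF9, Y27632, DAPT, PD0325901, aldosterone and vasopressin. They were thus older in culture than the day 10 group. Medium and time in culture both differ when they are compared with UB organoids. Adult mCD were sorted by FACS from kidneys of adult *Hoxb7*-Venus mice aged 2 months, a reporter under the control of a *Hoxb7* promoter. For all 10 libraries, those of the adult mCD included, the labels give the C57BL/6 x Swiss Webster background, the genotype Wnt11-RFP +/- and embryonic day 11, and they call the adult libraries organoids. The description of adult mCD as freshly sorted cells is the paper's and the series' design text's. Nothing states that the 2 libraries of a group came from separate cultures or animals, so p-values measure the spread between these libraries only.

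Keratins form the intermediate filaments of epithelial cells. A filament is built from pairs of one type I and one type II keratin, so that an epithelium needs members of both types. Keratin 8 and keratin 18 are the founding pair of simple epithelia, to which keratins 7 and 19 are added in many ducts, including the collecting duct of the kidney. Stratified epithelia and hair use other pairs. Type I genes lie together on mouse chromosome 11 and type II genes on chromosome 15. *Krt18* is the exception, since it is a type I gene located beside *Krt8* among the type II genes. In the list here, 23 of the 24 type I genes were on chromosome 11, and *Krt18* and all 20 type II genes were on chromosome 15.

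Promoter windows are shown for the pair *Krt8* and *Krt18*, whose levels took different courses although they are neighbours, and for *Krt7* and *Krt23*, which moved in opposite directions between UB and CD organoids. Each window holds 250 bases before and 50 bases after a RefSeq start site, reads from 5′ to 3′ on the strand of the gene, and is given in GRCm38.p6. The windows are chr15:102004293-102004592 (minus strand) for *Krt8*, chr15:102027966-102028265 (plus strand) for *Krt18*, chr15:101412153-101412452 (plus strand) for *Krt7* and chr11:99493071-99493370 (minus strand) for *Krt23*. Capitals mark matches on either strand to the TATA box motif TATAAA, the GC box motif GGGCGG and the AP-1 motif TGANTCA.
Krt8: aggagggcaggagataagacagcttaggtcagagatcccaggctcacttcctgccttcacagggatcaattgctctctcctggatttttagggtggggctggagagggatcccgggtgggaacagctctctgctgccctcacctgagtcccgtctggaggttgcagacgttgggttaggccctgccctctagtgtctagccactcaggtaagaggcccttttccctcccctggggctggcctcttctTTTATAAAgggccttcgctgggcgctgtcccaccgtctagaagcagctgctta
Krt18: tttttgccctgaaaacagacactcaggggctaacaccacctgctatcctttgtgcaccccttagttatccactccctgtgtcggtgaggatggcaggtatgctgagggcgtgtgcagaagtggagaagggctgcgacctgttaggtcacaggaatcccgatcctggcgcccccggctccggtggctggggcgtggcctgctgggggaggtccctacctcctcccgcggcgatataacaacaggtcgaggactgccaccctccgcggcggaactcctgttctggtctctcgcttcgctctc
Krt7: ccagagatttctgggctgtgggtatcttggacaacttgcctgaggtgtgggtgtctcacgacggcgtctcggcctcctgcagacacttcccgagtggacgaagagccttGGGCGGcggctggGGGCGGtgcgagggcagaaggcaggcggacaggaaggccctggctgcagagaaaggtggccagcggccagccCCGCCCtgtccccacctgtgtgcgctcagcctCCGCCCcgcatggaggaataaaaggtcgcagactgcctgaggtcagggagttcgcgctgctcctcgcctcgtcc
Krt23: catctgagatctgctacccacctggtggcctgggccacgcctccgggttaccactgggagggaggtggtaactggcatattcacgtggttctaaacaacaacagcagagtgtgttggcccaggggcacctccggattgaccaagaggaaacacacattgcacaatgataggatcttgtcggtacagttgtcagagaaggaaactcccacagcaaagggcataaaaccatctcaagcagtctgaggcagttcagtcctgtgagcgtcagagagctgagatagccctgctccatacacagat

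The *Krt8* window held TATAAA at position -1 from the start site, overlapping its reverse match TTTATA at position -3. In the *Krt7* window GGGCGG occurred at -141 and -128, and its reverse form CCGCCC at -56 and -24. None of the 3 motifs was found in the windows of *Krt18* and *Krt23*. RefSeq windows were matched for 30 of the 44 members, with 31 windows in all. TATAAA occurred in 15 of these 31 windows and in 13.6% of all 32851 windows, GGGCGG in 2 and in 35.7% of all, and TGANTCA in 2 and in 7.81% of all. A match describes letters in the window and not the binding of a factor. Positions hold for the RefSeq start sites used, which lie inside the gene spans given below and not at their ends. The *Krt7* window lies wholly inside its gene span.

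Total counts lay between 11913613 and 24536676 per library, and 3 counts, below which no level is read here, amounted to 0.109 to 0.241 CPM (counts scaled to library size with TMM factors). All UB markers listed for the check (*Ret*, *Wnt11*, *Gata3*, *Hoxb7*, *Calb1*, *Cdh1*) were detected in every library, but at unlike levels. *Ret* was at 15.8 and 17.4 CPM in CD organoids and 10.0 and 0.943 CPM in adult mCD, against at least 610 CPM in UB organoids. *Wnt11* was at 0.570 and 0.241 CPM and at 2.64 and 1.65 CPM, against at least 19.2 CPM. The other markers were at 68.2 CPM or more in every library. The 4 principal cell markers summed to between 6986 and 7240 CPM in adult mCD, between 632.8 and 775.5 CPM in CD organoids and at most 147.4 CPM in UB organoids. In CD organoids this sum was mostly *Aqp2*, at 632.3 and 485.3 CPM. *Avpr2* was at 0 there, and *Scnn1g*, at 119.6 and 128.4 CPM, lay between the libraries of day 5 (87.8 and 145.9 CPM). The 4 intercalated cell markers summed to 995.5 and 919 CPM in CD organoids, 1596 and 1626 CPM in adult mCD and at most 4.43 CPM in UB organoids. Among them *Foxi1* was higher in CD organoids (507.6 and 472.3 CPM) than in adult mCD (169.4 and 168.7 CPM), while the others were lower. *Slc4a1* was at 2.78 and 2.25 CPM in CD organoids against 545.4 and 530.1 CPM in adult mCD. Markers of other cells also differed between groups. The 8 proximal tubule markers summed to 4483 and 5265 CPM in adult mCD against at most 37.3 CPM elsewhere, the 5 endothelial markers to 588 and 585 CPM against at most 2.91 CPM, and the 5 uroplakin genes of urothelium to 67.6 and 57.9 CPM against at most 8.65 CPM. Of these 18 genes none was at 0 in adult mCD, while *Upk2* was at 0 in all 6 UB organoid libraries. The 8 stromal markers summed to 280 and 149 CPM in CD organoids, 153 and 165 CPM in adult mCD and at most 40.7 CPM in UB organoids, and the 6 leukocyte markers to 52.0 and 46.2 CPM, 30.1 and 26.2 CPM, and at most 17.4 CPM in the same order. The leukocyte sum in CD organoids was mostly *Ptprc*, at 43.7 and 37.4 CPM. *Cd79a* went the other way, with 8.29 and 6.53 CPM at day 10, and was under 3 counts in CD organoids, as were *Lyz2*, *C1qa* and *Cd3e*. Y-linked genes summed to between 230 and 295 CPM in the libraries of day 20, CD organoids and adult mCD, and to at most 0.875 CPM at days 5 and 10. The comparisons of day 10 with day 20 and with CD organoids are thus also comparisons between libraries without and with Y-linked transcripts. Libraries of days 5 and 10 were also deeper, at 22858971 to 24536676 counts, than the others, at 11913613 to 16759872. The sample records of days 5 and 10 are also numbered apart from the others. In these comparisons the group cannot be told apart from the sex of the source, from the depth or from any batch that followed the same split. The day 10 libraries were probably not from the same embryos as those of day 20 and CD organoids. The part of these differences in the keratin values was not tested. In bulk libraries, fewer cells of a type and less RNA per cell cannot be told apart.

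The share of the member keratin genes among all counts was 0.0918 ± 0.00795% (SD, n = 2) at day 5, 0.140 ± 0.00656% at day 10, 0.140 ± 0.00692% at day 20, 0.194 ± 0.00458% in CD organoids and 0.263 ± 0.0118% in adult mCD. The 5 genes *Krt7*, *Krt8*, *Krt18*, *Krt19* and *Krt23* held between 95.6% and 99.2% of the keratin counts of each library. *Krt8* and *Krt18* alone held between 57.8% and 70.2%. Among the members reported here, the keratin transcripts of every group were thus almost wholly those of simple epithelium together with *Krt23*.

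Genes were tested with edgeR's quasi-likelihood test on the counts of all 24410 genes that passed the count filter. A gene was called when its Benjamini-Hochberg adjusted p was at most 0.01 and its change was more than 4-fold. "Rose" and "fell" are used only of genes that were called. Between days 5 and 10, 2 of the 20 tested keratins (10%) were called, both higher, against 3.41% of all genes tested (2.34% higher and 1.07% lower). From day 10 to day 20, 2 of 20 (10%) were called, both lower, against 3.39% of all genes (1.66% higher and 1.73% lower). In CD organoids against day 10, 8 of 20 (40%) were called, 6 higher and 2 lower, against 10.7% of all genes (4.96% higher and 5.71% lower). Against day 20, 9 of 20 (45%) were called, 6 of them higher and 3 lower, with 9.46% of all genes called (4.74% higher and 4.73% lower). In adult mCD against day 20, 7 of 20 (35%) were called, 5 higher and 2 lower, against 19.2% of all genes (12.3% higher and 6.89% lower). Between CD organoids and adult mCD, 3 of 20 (15%) were called, with 2 above and 1 below adult mCD, which is near the 14.3% of all genes (4.5% higher and 9.84% lower). The comparisons share libraries, so these counts are not independent of one another. The filter sums counts over all groups, so a gene with counts in a single group could pass it only by being higher there.

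The median log2 fold change over the 20 tested keratins was 0.44 at day 10 against day 5, where the median of all genes was 0.02. It was -0.10 at day 20 against day 10, where all genes were also at -0.10. In CD organoids it was 0.09 against day 10 and 0.30 against day 20, with all genes at -0.15 and 0.00. Adult mCD stood at 1.10 against day 20, with all genes at -0.06, and CD organoids at -0.99 against adult mCD, with all genes at 0.00. With no limit on the fold and an adjusted p up to 0.05, 6, 6, 10, 10, 13 and 10 keratins passed in these 6 comparisons, in the order given, beside 32.7%, 29%, 47.2%, 42.2%, 56.4% and 49.9% of all genes.

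**Figure D1:**
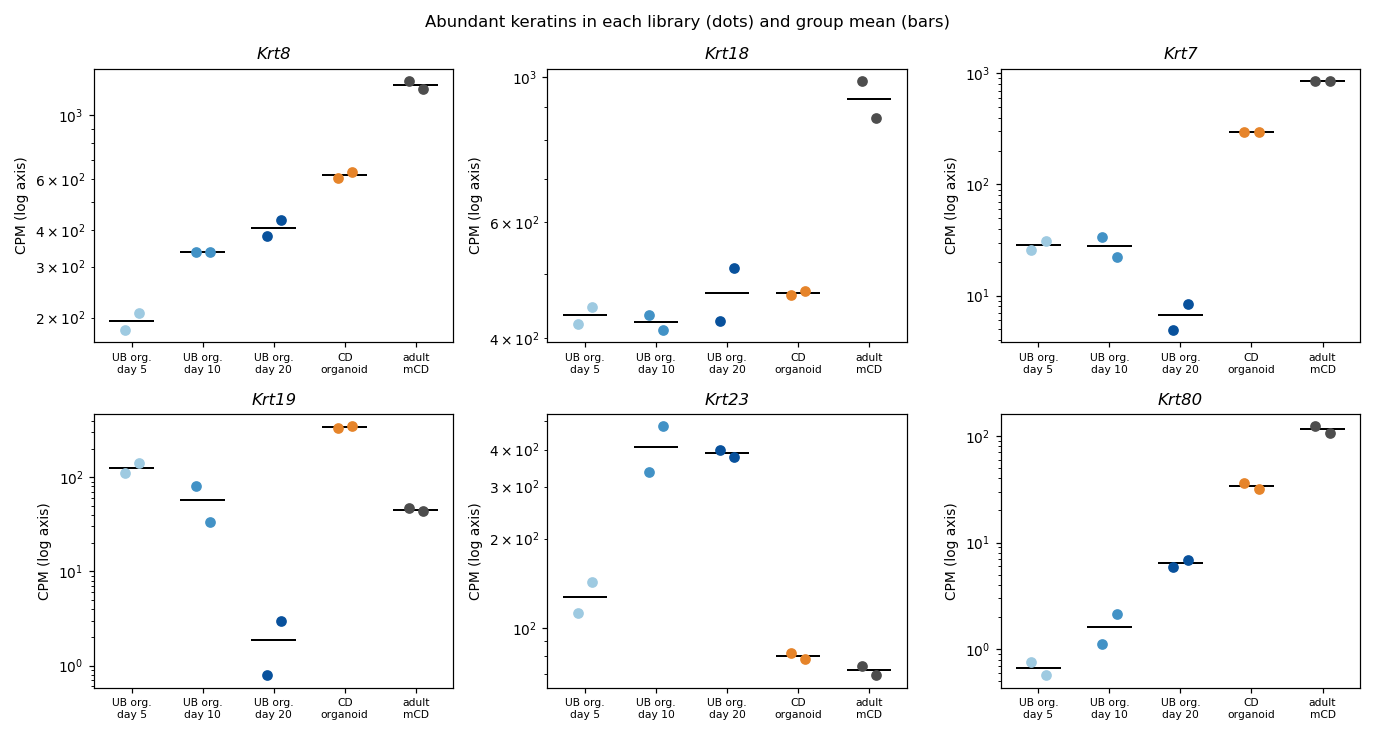
Level of *Krt8*, *Krt18*, *Krt7*, *Krt19*, *Krt23* and *Krt80* in each library (dots, CPM on a log axis), with the group mean as a bar, for UB organoids of days 5, 10 and 20, CD organoids and adult mCD (2 libraries each). *Krt8* and *Krt80* are ordered from day 5 to adult mCD, *Krt7* and *Krt19* are lowest at day 20, and *Krt23* is highest at days 10 and 20.

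*Krt8*, the type II keratin of simple epithelia (chromosome 15, 101996698 to 102004482 in GENCODE M21 on GRCm38, minus strand), was higher in each group than in the one before. It stood at 181.3 and 207.9 CPM at day 5, 336 and 338.1 CPM at day 10, 382.3 and 434.5 CPM at day 20, 607.5 and 636.2 CPM in CD organoids, and 1314 and 1235 CPM in adult mCD. No group overlapped with the next. None of its steps exceeded 4-fold, so *Krt8* was not called in any of the 6 comparisons. Its log2 fold change was 0.79 from day 5 to day 10 (standard error 0.0868, edgeR adjusted p = 1.51e-05) and 0.28 from day 10 to day 20 (standard error 0.0862, edgeR adjusted p = 0.0279). CD organoids exceeded day 10 by 0.88 on the log2 scale (edgeR adjusted p = 1.26e-06) and day 20 by 0.61 (edgeR adjusted p = 5.33e-05). Adult mCD exceeded day 20 by 1.64 on the log2 scale (edgeR adjusted p = 1.61e-09). The log2 difference of CD organoids from adult mCD was -1.03 (edgeR adjusted p = 2.56e-07).

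*Krt18*, the type I partner of *Krt8* (chromosome 15, 102028180 to 102032027, plus strand), lies 23697 bases from it and showed another course. Its libraries were at 419.6 and 445.9 CPM at day 5, 433 and 411.4 CPM at day 10, 423.7 and 511.6 CPM at day 20, and 464.8 and 471.9 CPM in CD organoids. These 4 groups lay within a narrow range, and day 5 overlapped with day 10, day 10 with day 20, and day 20 with CD organoids. Adult mCD stood apart at 985.8 and 864.7 CPM. The log2 fold change of *Krt18* was -0.04 from day 5 to day 10 (edgeR adjusted p = 0.816), 0.15 from day 10 to day 20 (edgeR adjusted p = 0.273) and 0.15 from day 10 to CD organoids (edgeR adjusted p = 0.214), with standard errors of 0.0940, 0.0942 and 0.0943. The first of these was 0.11 when libraries were scaled by their totals alone. In adult mCD it was 0.98 above day 20 (standard error 0.0950, edgeR adjusted p = 6.67e-07), and CD organoids were 0.98 below adult mCD on the same scale (edgeR adjusted p = 1.09e-06).

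The ratio of *Krt8* to *Krt18* within a library does not depend on how libraries are scaled. Per length of the longest coding transcript, there were 0.317 and 0.342 *Krt8* for each *Krt18* at day 5, 0.570 and 0.603 at day 10, 0.662 and 0.623 at day 20, 0.959 and 0.990 in CD organoids, and 0.978 and 1.05 in adult mCD. The ratio was below 1 in every UB organoid library and near 1 in CD organoids and adult mCD, which overlapped. Counts of the pseudogene *Krt8-ps* reached at most 24 in a library and could take little from *Krt8*.

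*Krt7*, a type II keratin of ducts and other simple epithelia (chromosome 15, 101411043 to 101430313, plus strand), was low in UB organoids and abundant in CD organoids and adult mCD. Libraries stood at 25.7 and 30.8 CPM at day 5, 33.5 and 22.2 CPM at day 10, and 4.92 and 8.46 CPM at day 20, then at 298.9 and 298.9 CPM in CD organoids and 850.1 and 853.4 CPM in adult mCD. Days 5 and 10 overlapped, and all other groups were separate. *Krt7* fell from day 10 to day 20 with a log2 fold change of -2.06 (standard error 0.217, edgeR adjusted p = 1.36e-05). That change was close to the 4-fold limit, being -1.71 without replicate 1 of day 10 and -1.69 without replicate 1 of day 20, at which it was no longer called. It rose in CD organoids by 3.43 over day 10 (standard error 0.181, edgeR adjusted p = 2.88e-09) and by 5.48 over day 20 (standard error 0.217, edgeR adjusted p = 2.93e-10). In adult mCD it was 6.99 above day 20 (standard error 0.225, edgeR adjusted p = 1.26e-11), a 127-fold difference. CD organoids were 1.51 below adult mCD on the log2 scale, which is under 4-fold (edgeR adjusted p = 3.31e-06). The gene *Gm671* overlaps *Krt7* on the other strand and had at most 43 counts in a library.

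*Krt19*, the smallest type I keratin and a marker of ducts (chromosome 11, 100140810 to 100148665, minus strand), had the widest fold range of the simple keratins. It was measured at 109.7 and 141.4 CPM at day 5, 81.4 and 33.6 CPM at day 10, and 0.789 and 2.97 CPM at day 20. In CD organoids it was at 333.7 and 346.7 CPM and in adult mCD at 46.9 and 43.3 CPM. CD organoids were the highest group and day 20 the lowest, while adult mCD lay between the libraries of day 10. *Krt19* fell from day 10 to day 20 by 4.92 on the log2 scale (standard error 0.465, edgeR adjusted p = 5.28e-06), and it rose in CD organoids by 2.57 over day 10 (standard error 0.304, edgeR adjusted p = 8.16e-06) and 7.49 over day 20 (standard error 0.455, edgeR adjusted p = 1.41e-08). Adult mCD exceeded day 20 by 4.58 (standard error 0.480, edgeR adjusted p = 1.58e-06). Between CD organoids and adult mCD the log2 fold change was 2.91 (standard error 0.317, edgeR adjusted p = 3.50e-06), so that *Krt19* and *Krt7*, which both rose from UB to CD organoids, stood on opposite sides of adult mCD. The step from day 5 to day 10 was -1.13 and under 4-fold (edgeR adjusted p = 0.00955), being -1.91 and -0.64 with replicate 2 and replicate 1 of day 10 alone. The size of the *Krt19* changes varied with single libraries of days 10 and 20, although each of these calls was kept with any 1 library left out. From day 10 to day 20 the value was -4.13 without replicate 1 of day 10, -4.22 without replicate 1 of day 20 and -6.09 without replicate 2 of day 20. For CD organoids against day 10 it was 3.35 without replicate 1 of day 10. Without replicate 1 and without replicate 2 of day 20, CD organoids stood 6.80 and 8.66 above day 20, and adult mCD stood 3.91 and 5.75 above it.

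*Krt20*, the type I keratin of intestinal epithelium and urothelial umbrella cells (chromosome 11, 99428403 to 99438150, minus strand), had between 2 and 23 counts per library. Its level was between 0.160 and 0.982 CPM, and it was not called in any comparison.

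**Figure D2:**
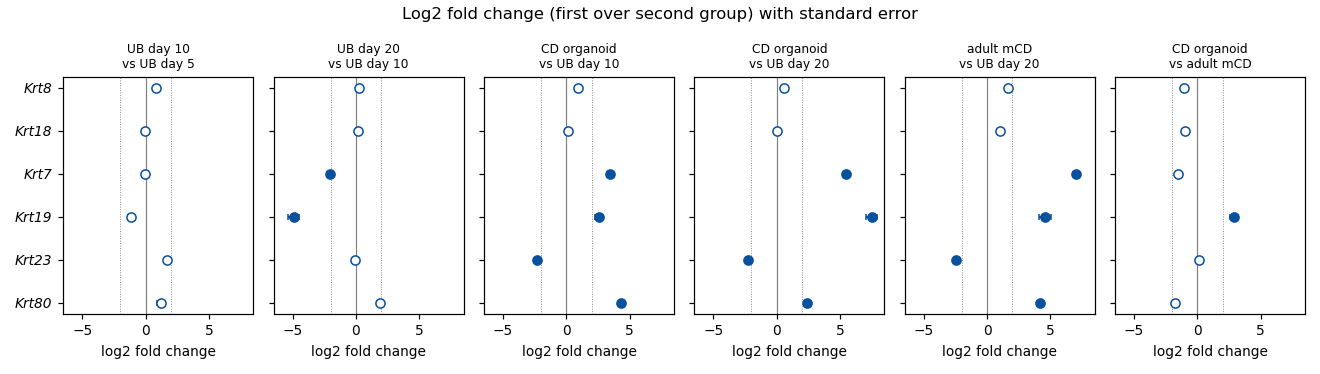
Log2 fold change of 6 keratins in each of the 6 comparisons (first group over second), with standard errors from edgeR as bars. Filled points were called, open points were not, and dotted lines mark 4-fold. *Krt7*, *Krt19* and *Krt80* lie to the right in both comparisons of CD organoids with UB organoids and *Krt23* to the left, while *Krt18* stays within 1 log2 unit of 0 throughout.

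*Krt23*, a type I keratin of simple and glandular epithelia outside the classical set (chromosome 11, 99477974 to 99493137, minus strand), followed a course of its own. It was at 112.5 and 142.5 CPM at day 5, 334.9 and 478.9 CPM at day 10, and 399.8 and 378.8 CPM at day 20, then at 82.2 and 78.5 CPM in CD organoids and 74.5 and 69.1 CPM in adult mCD. The 4 libraries of days 10 and 20 were above all others. From day 5 to day 10 the log2 fold change was 1.67, which is under 4-fold (standard error 0.143, edgeR adjusted p = 1.97e-06). *Krt23* fell in CD organoids by 2.34 against day 10 (standard error 0.149, edgeR adjusted p = 1.75e-08) and by 2.28 against day 20 (standard error 0.149, edgeR adjusted p = 2.96e-08), and in adult mCD by 2.44 against day 20 (edgeR adjusted p = 6.73e-09). CD organoids and adult mCD differed by 0.16 on the log2 scale with a standard error of 0.150 (edgeR adjusted p = 0.401).

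*Krt80*, a type II keratin found near desmosomes in many epithelia (chromosome 15, 101347444 to 101370162, minus strand), was lowest at day 5, with 18 and 14 counts, and highest in adult mCD. Libraries stood at 0.769 and 0.572 CPM at day 5, 1.11 and 2.15 CPM at day 10, 5.95 and 6.88 CPM at day 20, 36.3 and 31.9 CPM in CD organoids, and 122.6 and 107 CPM in adult mCD. The 5 groups did not overlap and had the same order as for *Krt8*. *Krt80* rose in CD organoids by 4.33 over day 10 (standard error 0.197, edgeR adjusted p = 6.71e-10) and 2.40 over day 20 (standard error 0.175, edgeR adjusted p = 8.17e-08), and in adult mCD by 4.15 over day 20 (standard error 0.173, edgeR adjusted p = 1.29e-10). The steps of 1.24 from day 5 to day 10 and 1.92 from day 10 to day 20 were under 4-fold (edgeR adjusted p = 0.00827 and 3.61e-05), the latter reaching 2.49 and a call without replicate 2 of day 10 and 2.05 and a call without replicate 1 of day 20, and called also with DESeq2. CD organoids were 1.75 below adult mCD (edgeR adjusted p = 2.66e-07). *Gm35853* overlaps *Krt80* on the other strand and had at most 45 counts in a library, against 1627 for *Krt80* itself. Of the other 4 genes in this class, *Krt222* and *Krt88* were tested with at most 12 counts in a library and were not called, and *Krt24* and *Krt90* did not pass the filter.

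The balance of type I and type II keratins was described by summing the deposited RPKM values, which are counts scaled to gene length and library size, over the members of each type. Summed type I was 4.16 ± 0.0753 times summed type II (SD, n = 2) at day 5, 3.28 ± 0.247 times at day 10, 2.76 ± 0.0883 times at day 20 and 1.39 ± 0.0288 times in CD organoids. In adult mCD the ratio was 0.949 ± 0.0445, with type II slightly above type I. The groups did not overlap in this ratio, which is a description and was not tested. The listed gene lengths add up the exons of all transcripts of a gene, so that genes with many transcripts get too low an RPKM, *Krt80* by 3.23 times and *Krt7* by 2.29 times relative to the longest coding transcript. With merged exon lengths the 5 ratios were 4.37, 3.33, 2.76, 1.53 and 0.918, and with the longest coding transcript 4.36, 3.31, 2.74, 1.48 and 0.822, so the order of the groups was the same with all 3 lengths.

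Within type I, per length of the longest coding transcript, *Krt18* made up 64.9% on average at day 5, 49.5% at day 10, 55.9% at day 20, 54.6% in CD organoids and 87.9% in adult mCD. *Krt19* made up 17.1%, 6.24%, 0.201%, 36.2% and 3.91% in the same order, and *Krt23* 17.5%, 43.5%, 42.9%, 8.61% and 6.27%. *Krt23* was thus above *Krt19* in the libraries of days 10 and 20, and in replicate 2 of day 10 it was also above *Krt18* (49.5% and 46.3%), while in CD organoids *Krt19* was above *Krt23*. Within type II, *Krt8* held 93.1%, 95.6% and 98.3% at days 5, 10 and 20, 78.9% in CD organoids and 73.1% in adult mCD. *Krt7* held 6.45%, 3.77%, 0.760%, 18.1% and 23.4%. *Krt80* stayed at or below 3.29%. These shares are group means over 2 libraries.

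**Figure D3:**
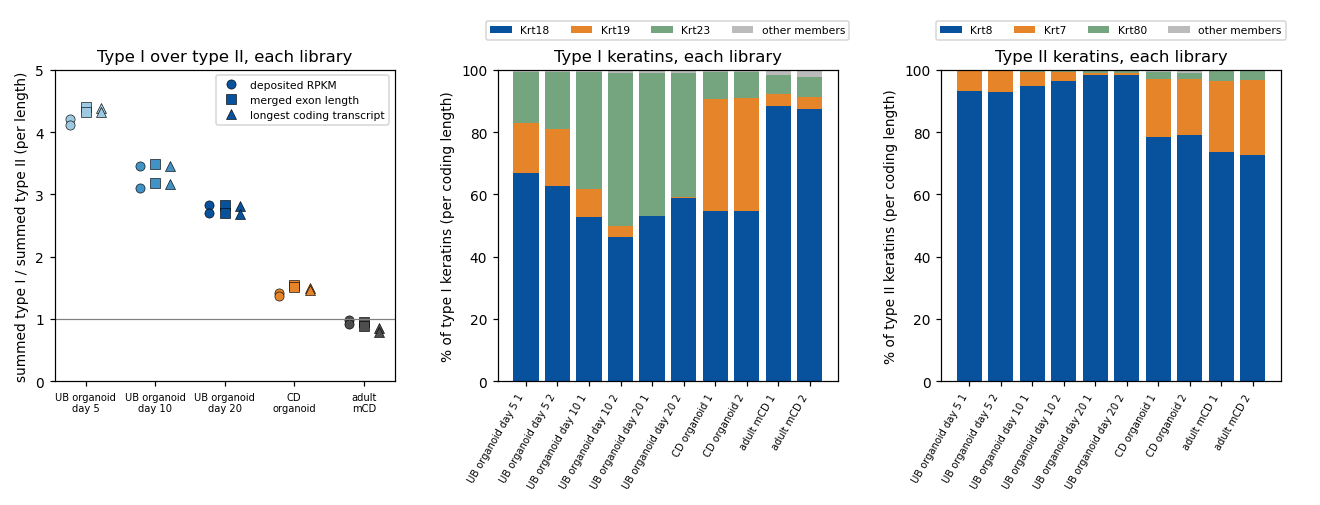
Left, summed type I over summed type II keratins in each library, per length by 3 definitions of gene length (symbols), falling from above 4 at day 5 to below 1 in adult mCD. Middle and right, share of each gene among type I and type II keratins in each library (stacked to 100%, per length of the longest coding transcript), with *Krt23* prominent at days 10 and 20, *Krt19* in CD organoids and *Krt7* in CD organoids and adult mCD.

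Among the 14 keratins of stratified epithelia, 7 were tested and *Krt4*, *Krt15* and *Krt17* were called in at least 1 comparison. *Krt10*, the type I keratin of differentiated epidermis, was detected in every library at between 4.18 and 9.83 CPM and was not called. It had the highest count of this class outside the adult libraries, with at most 145 counts. *Krt1*, the type II partner of *Krt10* in epidermis, had between 1 and 11 counts per library. *Krt16*, a keratin of wounded and hyperproliferative epidermis, had 4 and 10 counts in adult mCD and at most 1 elsewhere, and *Krt79* was tested without a call.

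*Krt15*, the type I keratin of basal cells in stratified epithelia (chromosome 11, 100131758 to 100135928, minus strand), is separated from *Krt19* by 4881 bases. Libraries held at most 2 counts in UB organoids, 7 and 15 counts in CD organoids, and 186 and 189 counts in adult mCD, which is 14.0 and 14.9 CPM. Adult mCD were thus well above all other libraries. *Krt15* was at least 75.9-fold higher in adult mCD than at day 20, where all libraries were at or under 3 counts (edgeR adjusted p = 4.67e-08). CD organoids were at least 7.45-fold above day 10 (edgeR adjusted p = 6.84e-04) and at least 4.47-fold above day 20 (edgeR adjusted p = 0.00198), both calls that were lost without replicate 2 of the CD organoids (edgeR adjusted p = 0.0159 and 0.0269, with log2 fold changes of 2.61 and 2.71), where the bounds were 4.37-fold and 2.62-fold. The second was also lost without replicate 2 of day 20, at a log2 fold change of 2.97. Against adult mCD, the level in CD organoids fell by 4.03 on the log2 scale (standard error 0.400, edgeR adjusted p = 1.43e-06), and by 4.73 without replicate 2 of the CD organoids. Both *Krt15* and the uroplakin sum given above were highest in adult mCD, where that sum was 67.6 and 57.9 CPM. In it, *Upk1b* was at 13.4 and 13.0 CPM and *Upk3a* at 15.2 and 14.4 CPM. The other groups were not in the same order, since the uroplakin sum was 8.07 and 8.65 CPM at day 5 and 5.34 and 5.53 CPM in CD organoids. The part of urothelial cells in the *Krt15* level was not tested.

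*Krt4*, the type II keratin of the suprabasal cells of mucosal stratified epithelia (chromosome 15, 101918535 to 101924735, minus strand), was highest in CD organoids. At days 5, 10 and 20 its libraries held 0 and 2, 18 and 17, and 2 and 2 counts, with 53 and 72 in CD organoids, and 4 and 8 in adult mCD. CD organoids, at 3.77 and 5.78 CPM, did not overlap with any other group. *Krt4* was at least 5.32-fold higher at day 10 than at day 5 (edgeR adjusted p = 0.00151), a call lost without replicate 1 of day 5 (log2 fold change 2.40, edgeR adjusted p = 0.0172). In CD organoids it was 2.74 above day 10 on the log2 scale (standard error 0.384, edgeR adjusted p = 3.97e-05) and 3.22 above adult mCD (standard error 0.451, edgeR adjusted p = 3.86e-05). Against day 20, with 2 and 2 counts, it was at least 25.1-fold higher (edgeR adjusted p = 4.01e-06). This bound was 19.8-fold without replicate 2 of the CD organoids.

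*Krt17*, a type I keratin of basal and stressed epithelia (chromosome 11, 100256217 to 100261029, minus strand), had its highest level at day 20. At days 5, 10 and 20 its libraries held 3 and 7, 14 and 6, and 20 and 27 counts, with 2 and 2 in CD organoids, and 8 and 6 in adult mCD. At 1.21 and 1.79 CPM, day 20 stood above all other libraries. *Krt17* was at least 6.60-fold lower in CD organoids than at day 20 (edgeR adjusted p = 0.00108). This bound was 5.34-fold without replicate 2 of day 20. The call was lost on its adjusted p without replicate 2 of day 20, replicate 1 of the CD organoids or replicate 2 of the CD organoids (log2 fold changes of -2.64, -2.86 and -3.00). From day 10 to day 20 the log2 fold change was 1.83, under 4-fold (edgeR adjusted p = 0.00829), and 2.51 without replicate 1 of day 10, at which it was called.

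Among the 12 hair shaft keratins, 4 were tested and *Krt39* and *Krt87* were called. *Krt39*, a type I keratin of hair (chromosome 11, 99514114 to 99521338, minus strand), was confined in these libraries to UB organoids. At days 5, 10 and 20 its libraries held 6 and 5, 24 and 94, and 44 and 29 counts, with 0 in all 4 libraries of CD organoids and adult mCD, where a count of 0 allows up to 3 counts. *Krt39* was at least 9.64-fold lower in CD organoids than at day 10 (edgeR adjusted p = 4.70e-04), a bound that was 4.19-fold without replicate 2 of day 10 and 15.1-fold when only that replicate was kept. It was at least 10.1-fold lower than at day 20 (edgeR adjusted p = 5.53e-04), and adult mCD were at least 9.93-fold below day 20 (edgeR adjusted p = 3.86e-04). It was higher at day 10 than at day 5 by 2.99 on the log2 scale (standard error 0.604, edgeR adjusted p = 0.00265), but the libraries of day 10 differed, at 0.952 and 3.43 CPM, and the value was 3.60 without replicate 1 of day 10. This call was lost without either library of day 5 or without replicate 2 of day 10 (log2 fold changes of 3.13, 2.86 and 1.80, edgeR adjusted p = 0.0226, 0.0281 and 0.0145). *Krt39* and *Krt23* are separated by 20976 bases on the same strand, and both had their highest levels at days 10 and 20.

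*Krt87*, a type II keratin of the hair class (chromosome 15, 101431038 to 101438804, minus strand), was most abundant in adult mCD. Counts were at most 4 in UB organoids, 16 and 20 in CD organoids, and 51 and 32 in adult mCD. *Krt87* rose in CD organoids by 2.92 over day 10 (standard error 0.506, edgeR adjusted p = 2.68e-04) and was at least 7.21-fold above day 20 (edgeR adjusted p = 2.79e-04), and adult mCD were at least 16.7-fold above day 20 (edgeR adjusted p = 5.41e-06). The gene ends 724 bases from the end of *Krt7*, which lies on the other strand, and it was called higher in the same 3 comparisons as *Krt7*. Of the counts on both genes, *Krt87* held 0.380% and 0.534% in CD organoids (exact 95% binomial intervals 0.217 to 0.616% and 0.326 to 0.823%, counting error only) and 0.450% and 0.294% in adult mCD (0.335 to 0.591% and 0.201 to 0.415%). At days 5 and 10 the share was between 0.265% and 0.496%, within the range of the 4 libraries of CD organoids and adult mCD or just below it, while the counts of *Krt7* differed widely. At day 20, 2 of 83 and 0 of 128 counts were on *Krt87*. Whether the counting used the strand is not stated, and the part of *Krt7* reads in the *Krt87* counts was not tested.

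The other 2 tested hair shaft keratins, *Krt40* and *Krt82*, had at most 4 counts in a library, all in UB organoids, and were not called. None of the 7 keratins of the inner root sheath and companion layer passed the filter, and the highest count of any of them in a library was 2. Among all 24 members that were not tested, no library held more than 3 counts.

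**Figure D4:**
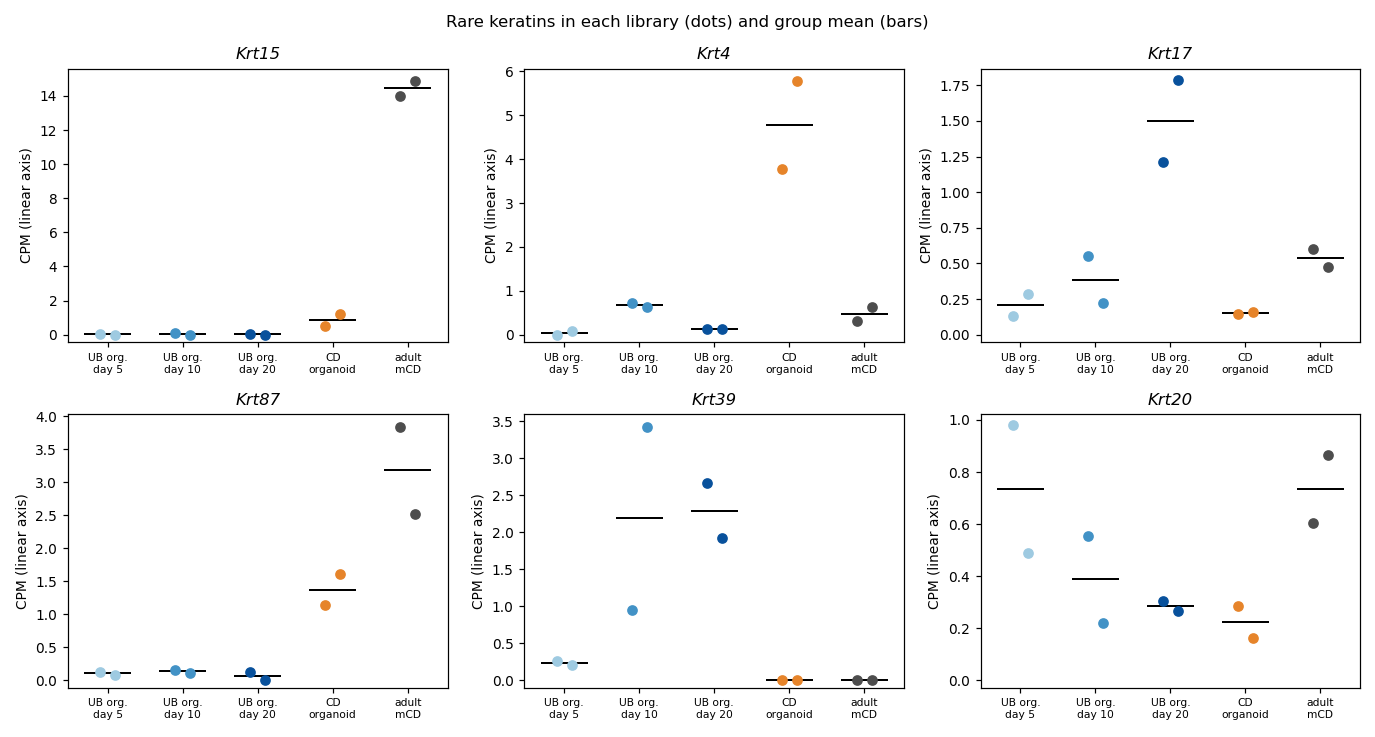
Level of *Krt15*, *Krt4*, *Krt17*, *Krt87*, *Krt39* and *Krt20* in each library (dots, CPM on a linear axis), with the group mean as a bar. *Krt15* and *Krt87* are highest in adult mCD, *Krt4* in CD organoids and *Krt17* at day 20, and *Krt39* is at 0 in CD organoids and adult mCD.

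Keratin filaments are anchored to desmosomes and hemidesmosomes by plakins and other linkers. From a list of 21 such genes in the table, 20 were tested. Called were 1, 1, 3, 1, 6 and 1 of them in the 6 comparisons in the order above, which is 5%, 5%, 15%, 5%, 30% and 5%, beside 3.41%, 3.39%, 10.7%, 9.46%, 19.2% and 14.3% of all genes. Their median log2 fold change was 0.07, 0.11, 0.95, 0.62, 0.87 and -0.36 in the same order. All genes were at 0.02, -0.10, -0.15, 0.00, -0.06 and 0.00. Desmoplakin (*Dsp*), which ties keratin filaments to desmosomes, was at 462.5 and 426.3 CPM at day 5, 241.5 and 205.8 CPM at day 10, 92.1 and 106.1 CPM at day 20, 523.3 and 511.3 CPM in CD organoids, and 821 and 705.4 CPM in adult mCD. Day 20 was the lowest group for *Dsp*, as it was for *Krt7* and *Krt19*. *Dsp* rose by 2.38 in CD organoids over day 20 (standard error 0.107, edgeR adjusted p = 8.14e-10) and by 2.95 in adult mCD over day 20 (standard error 0.109, edgeR adjusted p = 4.26e-11). Its difference of 1.21 between CD organoids and day 10 was under 4-fold (edgeR adjusted p = 2.71e-07).

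Integrin β4 (*Itgb4*), the hemidesmosomal receptor linked to keratins through plectin, stood at 36.0 and 34.6 CPM at day 5, 17.0 and 20.9 CPM at day 10, 111.2 and 114.8 CPM at day 20, 237.5 and 235.3 CPM in CD organoids, and 138.5 and 118.6 CPM in adult mCD. It rose from day 10 to day 20 by 2.57 (standard error 0.103, edgeR adjusted p = 1.77e-09) and in CD organoids over day 10 by 3.64 (standard error 0.105, edgeR adjusted p = 1.29e-11), so that unlike *Krt7* and *Krt19* it was higher at day 20 than at day 10. The plakins plectin (*Plec*), dystonin (*Dst*) and envoplakin (*Evpl*) rose in adult mCD over day 20 by 2.18, 2.74 and 2.13 on the log2 scale (edgeR adjusted p = 1.94e-10, 2.31e-09 and 1.35e-09). Both *Plec* and *Evpl* were close to the 4-fold limit and were no longer called without replicate 1 of adult mCD, where 3 of the 6 calls of that comparison were left, or with library totals alone or limma, where 4 were left.

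Of 10 genes for other intermediate filament proteins, all were tested, and 0, 0, 4, 4, 5 and 3 were called in the 6 comparisons, beside 3.41%, 3.39%, 10.7%, 9.46%, 19.2% and 14.3% of all genes. Vimentin (*Vim*), the filament protein of mesenchymal cells, stood at 56.5 and 51.2 CPM at day 5, 23.5 and 12.1 CPM at day 10, 5.22 and 6.48 CPM at day 20, 13.8 and 9.55 CPM in CD organoids, and 248 and 232 CPM in adult mCD. It rose in adult mCD over day 20 by 5.35 (standard error 0.260, edgeR adjusted p = 6.09e-10). CD organoids were 4.35 below adult mCD (standard error 0.243, edgeR adjusted p = 4.38e-09), while adult mCD also had the endothelial sum of 588 and 585 CPM given above, whose part in the *Vim* level was not tested. Lamin A/C (*Lmna*) was at 1105 and 996.3 CPM in adult mCD against at most 68.2 CPM elsewhere. Lamin B1 (*Lmnb1*) fell in CD organoids with log2 fold changes of -2.82 against day 10 and -2.42 against day 20, and in adult mCD with -3.06 against day 20 (edgeR adjusted p = 9.73e-11, 5.09e-10 and 2.67e-11). Nestin (*Nes*), a filament protein of progenitor cells, fell in CD organoids with log2 fold changes of -3.08 against day 10 and -2.35 against day 20 (edgeR adjusted p = 2.17e-10 and 4.10e-09), and synemin (*Synm*), which joins vimentin and desmin filaments, with -2.54 and -2.83 (edgeR adjusted p = 5.35e-09 and 2.73e-09). *Krt23* was the abundant keratin that fell in these 2 comparisons, whereas *Krt7*, *Krt19* and *Krt80* rose.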

How the data were processed

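Libraries of UB organoids (days 5, 10 and 20), CD organoids and adult mCD were analysed, 2 per group. Per the paper's methods, the authors trimmed and aligned reads in Partek Flow with STAR 2.5.3a to mm10 and assigned them to GENCODE M24 genes with an E/M model, which shares out reads between similar genes. The deposited table holds whole-number counts, RPKM values and a signal of TMM-scaled counts, which the authors computed from them. The submitters' processing notes also name FastQC 0.11.8, cutadapt 2.5, Trimmomatic 0.36, STAR and edgeR 3.28.1, and which of these made the table is not given in the sources used here. The signal served as an alternative only. The labels name RNeasy and TruSeq kits, and the paper Direct-zol and KAPA Stranded kits. Totals ranged from 11913613 to 24536676 counts.

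Counts were fitted for all 10 libraries together with edgeR 4.0.16 (R 4.3.3), TMM factors from 0.792 to 1.12, a prior count of 1, at least 10 counts per gene in all, and two-sided quasi-likelihood tests adjusted by Benjamini-Hochberg over 24410 genes. CPM use the TMM factors. The fit had a common dispersion of 0.00831 and 7.90 prior degrees of freedom (median). Standard errors were derived from the test statistic. Fold changes against groups at or under 3 counts per library are given as bounds, with that group set to 3 counts in each library. This allows for the counting error of a count of 0. It does not cover the counting error of low counts above 0 or of the higher group, nor the spread between libraries. Length-scaled values used deposited RPKM or GENCODE M21 lengths (99.7% of identifiers matched). Same-numbered libraries deviated together in 1 of 10 pairs of groups (r over 0.1). Tested on simulated data, edgeR recovered 200 of 200 genes changed 8-fold between CD organoids and day 10, among 23591, with 0 false calls. The changed genes were drawn only from well-counted genes, and all genes had the same fixed dispersion. The simulation therefore cannot tell how calls behave for genes with few counts, such as the rare keratins.

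Named genes were all simple keratins, every keratin called in a comparison, and linker or filament genes called at a mean RPKM of at least 5. Genes given beside these were chosen after their values were seen. Members and lists were chosen with earlier results of these data known. The 3 lettered keratin symbols fall outside the rule, and 2 matching genes are not reported here. Alternatives changed the scaling, filter, prior count, threshold, tool (DESeq2 1.42.0, limma 3.58.1 with the TMM signal), libraries fitted, replicate block and gene length, and left out each library. Python 3.11.15 with pandas 2.3.3, numpy 2.4.6, scipy 1.17.1 and matplotlib 3.10.9 was used.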

Additional observations from a re-analysis of the deposited data

How the results depend on the processing

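Of 31 called keratin values, 25 were called under every alternative, and 417 of 434 alternative values were still called, with none reversed. The alternative with an adjusted p up to 0.05 and no limit on the fold used the same fit. It keeps every call by construction, so its part of this tally shows nothing about stability. With it, 6 keratins passed at day 10 against day 5 and 6 at day 20 against day 10, beside 32.7% and 29% of all genes. In adult mCD against day 20, 13 passed, and in CD organoids against adult mCD 10, beside 56.4% and 49.9%. From day 5 to day 10, where 2 keratins were called, the count was 1 with a prior count of 5 and 0 with only those 2 groups fitted. Without 1 library it lay between 0 and 2 there, 2 and 3 from day 10 to day 20, 7 and 8 for CD organoids against day 10, and 7 and 9 against day 20, while it was 7 for adult mCD against day 20 and 3 for CD organoids against adult mCD. *Krt15* in CD organoids was under 4-fold with a prior count of 5 (1.84 against day 10 and 1.87 against day 20), as was *Krt4* at day 10 against day 5 (1.58). Calls were gained for *Krt80* from day 10 to day 20 with DESeq2, for *Krt16* in adult mCD against day 20 and CD organoids (limma, the 2 groups alone, and without a filter against CD organoids) and for *Krt40* in CD organoids and adult mCD against day 20 (limma).

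For the linker genes, 11, 10, 14, 14, 15 and 15 passed at an adjusted p up to 0.05 with no limit on the fold in the 6 comparisons, beside 32.7%, 29%, 47.2%, 42.2%, 56.4% and 49.9% of all genes. Between days 5 and 10, 2 were called without a filter and with DESeq2, between days 10 and 20, 2 with library totals alone, and between CD organoids and adult mCD, 2 with library totals, without a filter, with limma, with the 2 groups alone and with the replicate number as a block. Without 1 library the counts lay between 1 and 2, 1 and 3, 2 and 4, 1 and 2, 3 and 6, and stayed at 1.

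The log2 fold change of *Krt18*, which was not called, changed sign from day 5 to day 10 (0.11 with library totals and with limma) and for CD organoids against day 20 (-0.059 with library totals, -0.042 without a filter, -0.016 with a stricter filter, -0.054 with limma and -0.014 with the 2 groups alone). Without 1 library these 2 values lay between -0.083 and 0.012, and between -0.13 and 0.14. The ratio of type I to type II keratins moved by more than its SD with other lengths, to 4.37 and 4.36 at day 5, 1.53 and 1.48 in CD organoids and 0.822 in adult mCD. Scaling by library totals moved the median of all genes by -0.41 in adult mCD against day 20, 0.34 in CD organoids against adult mCD and 0.14 at day 10 against day 5. The causes were not tested.

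Whether the replicate numbers pair the libraries is not stated. Same-numbered deviations correlated only between -0.08 and 0.14, which cannot decide it. With the replicate number as a block, 2, 2, 8, 9, 7 and 3 keratins were called in the 6 comparisons, and no keratin call changed. At these depths, genes under about 0.241 CPM could not be compared.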
